A study of Caenorhabditis elegans with 2 samples.

Results

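The Hox cluster genes lin-39, mab-5, egl-5, nob-1 and php-3 were examined in a map of chromatin recovered with CHE-1 from late Caenorhabditis elegans embryos. They are 5 of 19985 protein-coding genes and were chosen by name. A region was counted for a gene when its summit, the position the authors' caller gave within the region, lay between 5 kb upstream of the gene start and the gene end. The worms were of strain OP677, which carries the unc-119(tm4063) allele on chromosome III and the insertion wgIs677, with CHE-1 tagged at its C terminus with GFP and FLAG. Whole embryos of mixed sex were taken 6 hours after synchronization by bleaching, and chromatin was recovered with an antibody to GFP, per the sample descriptions, while the antibody field names che-1. Both samples carry the same alleles and insertion and are biological replicates 1 and 2 of 1 group. With no second group no test between conditions was possible. No untagged strain was analysed here, so whether recovery at these genes depends on CHE-1 was not tested.

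Hox genes code for homeodomain transcription factors that give cells their identity along the head-to-tail axis. In C. elegans they lie on chromosome III. lin-39 acts in the midbody and the vulva, mab-5 in the posterior body and in neuroblast migration, and egl-5 in the tail. nob-1 and php-3 are neighbouring posterior genes of the Abdominal-B type that pattern the rear of the embryo. CHE-1, a zinc finger protein, is best known as the factor that sets the identity of the ASE taste neurons in the head. Those are few cells, so in whole embryos recovery in fewer cells and weaker recovery per cell cannot be told apart.

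None of the 5 Hox genes had a peak of the thresholded set. It holds the 791 regions that passed a reproducibility filter, the irreproducible discovery rate (IDR), which compares the ranks of regions between replicates. In the list called on both replicates together, these were also the 791 regions with the highest scores. The count was 0 of 5 Hox genes, against 6.36% of all protein-coding genes and 8.27% of the 5589 genes whose windows were as long as those of the Hox genes (7768 to 12992 bp). With a share this low among all genes, 0 of 5 does not set the Hox genes apart. Each Hox gene did have regions in the longer lists of 30000, which include background and were ranked by the authors' signal score (rank 1 the highest). At least 1 region of any rank was found at 5 of 5 Hox genes in replicate 1 (75.3% of all genes and 85.1% of those with windows as long), in replicate 2 (76.6% and 86.4%) and in the list of both replicates together (71.7% and 82.3%). The highest 791 regions of replicate 1 reached 0 of 5 Hox genes (6.32% and 8.3%), and those of replicate 2 also 0 of 5 (6.08% and 7.6%). The highest 1582 regions reached 1 of 5 in replicate 1, lin-39 (11.6% and 15.2%), 0 of 5 in replicate 2 (11.1% and 14.3%) and 0 of 5 in the list of both (11.6% and 15.2%). Few genes were reached at these sizes and most at any rank, so none of these counts stands out from the background.

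The strongest Hox region lay in intron 1 of lin-39, on chromosome III at 7535370 to 7535853 in the list of both replicates, with its summit 1020 bp into the gene. The sequences around the summits of each gene's strongest region in the list of both are given here. They are the places where the authors' signal score at each Hox gene was highest in that list. Regions of the list of both that hold the letters GAAACC or GAAGCC, the core of the site described for CHE-1 in ASE neurons, are added. Matches found only at summits of a replicate list are not printed. Each runs 5′ to 3′ on the strand of its gene, in build WBcel235 (ce11), with 50 bp on each side of the summit. Capitals mark matches on either strand. Besides the core for CHE-1, the letters sought were TAATTA, a homeodomain core, and TGATNNAT, a form of the site that Hox proteins bind with a Pbx partner. CGCACA was also sought, because it was common in the strongest regions of these lists.
lin-39, intron 1, chrIII:7535562-7535662, minus strand: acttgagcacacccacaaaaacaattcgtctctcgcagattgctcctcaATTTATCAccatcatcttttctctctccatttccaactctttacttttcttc
lin-39, intron 3, chrIII:7530877-7530977, minus strand: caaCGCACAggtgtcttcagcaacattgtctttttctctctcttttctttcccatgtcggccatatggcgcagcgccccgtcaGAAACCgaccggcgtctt
mab-5, coding part of exon 1, chrIII:7783321-7783388, minus strand: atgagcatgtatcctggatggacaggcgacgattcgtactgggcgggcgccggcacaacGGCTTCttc
egl-5, upstream, chrIII:7812346-7812446, plus strand: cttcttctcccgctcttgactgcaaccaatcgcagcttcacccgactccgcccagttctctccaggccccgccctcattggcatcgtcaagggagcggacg
nob-1, intron 2, chrIII:12079505-12079605, minus strand: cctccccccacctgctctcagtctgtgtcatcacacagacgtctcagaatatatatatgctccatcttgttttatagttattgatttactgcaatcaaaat
nob-1, exon of a non-coding transcript, chrIII:12078239-12078339, minus strand: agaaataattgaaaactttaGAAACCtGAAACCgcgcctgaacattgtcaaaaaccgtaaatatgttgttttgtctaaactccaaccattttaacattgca
php-3, intron 3, chrIII:12075122-12075222, minus strand: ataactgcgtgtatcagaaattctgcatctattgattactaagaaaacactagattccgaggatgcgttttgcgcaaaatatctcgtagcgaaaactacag
The mab-5 sequence is 68 bp long because it stops at the start codon, the untranslated bases before it being left out.

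lin-39 (WBGene00003024, chromosome III, 7528641 to 7536632, minus strand) codes for the midbody Hox factor and held 2 regions in replicate 1, 3 in replicate 2 and 2 in the list of both. The intron 1 region had rank 1384 and a score of 60.8 in replicate 1. It was not listed in replicate 2, where the lowest listed score was 17.3, and had rank 3116 and a score of 79.961 in the list of both. Hence the highest Hox rank of any list rested on replicate 1. In replicate 1, 12.4% of regions of ranks 1001 to 2000 had no overlapping region in replicate 2. The sequence at its summit holds the Hox and Pbx form on the opposite strand, shown in capitals above. A weaker region in intron 3 was found in both replicates, with ranks 12349 in replicate 1, 14620 in replicate 2 and 6745 in the list of both. Its summits in the replicates were 150 bp apart, and an annotated non-coding RNA gene, C07H6.14, lay within 100 bp. That region holds GAAACC and CGCACA. The remaining lin-39 locus, 57 bp into the gene, was listed only in replicate 2, at rank 25374.

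**Figure D1:**
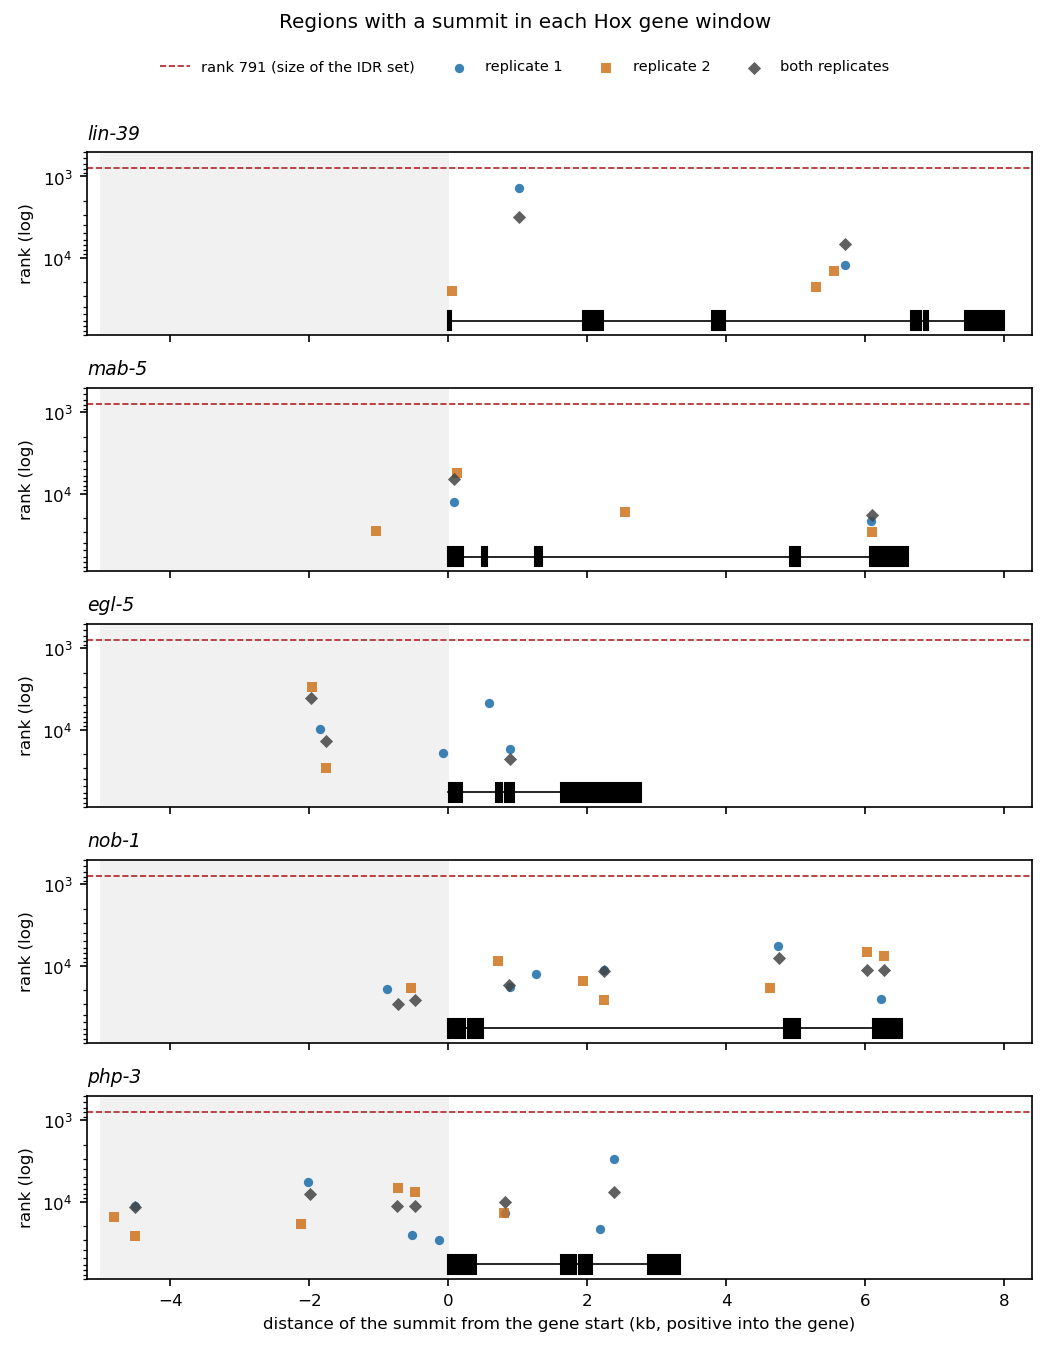
Every region with its summit in the window of each Hox gene, by list. The x axis is the distance of the summit from the gene start in kb (grey, the 5 kb upstream), the y axis the rank on a log scale with the strongest at the top, black boxes are exons of the first annotated transcript, and the dashed line is rank 791. All points lie below the line, and nob-1 and php-3 share the points of their common stretch.

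mab-5 (WBGene00003102, 7776835 to 7783454, minus strand), the posterior body gene, held 2 regions in replicate 1, 4 in replicate 2 and 2 in the list of both. Its strongest region lay at the gene start, at 7783129 to 7783612, with the summit in the coding part of exon 1, 83 bp from the start. This region had rank 12525 (score 31.8) in replicate 1, rank 5585 (34.7) in replicate 2 and rank 6672 (63.9) in the list of both. It was thus found by both replicates, 38 bp apart, and is the Hox region nearest a gene start that was. Its window holds GAAGCC on the other strand. A second shared region lay in the last exon, at ranks 21739 in replicate 1 and 29792 in replicate 2, near the end of both lists. In the list of both, 37 of the 435 runs of 50 bp there occur elsewhere in the genome. Of the other Hox regions in that list only 1, in intron 1 of php-3, had any such run (8 of 435). The loci in intron 3 (rank 16912) and 1048 bp upstream (rank 28544) were listed in replicate 2 alone. The sequence at the upstream summit held GAAACC.

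egl-5 (WBGene00001174, 7814374 to 7817141, plus strand), the tail gene, held 4 regions in replicate 1, 2 in replicate 2 and 3 in the list of both. Its strongest region in the list of both lay upstream, at 7812154 to 7812637, with the summit 1978 bp before the start. The locus had rank 9709 (score 34.8) in replicate 1, rank 3003 (41.3) in replicate 2 and rank 4072 (74.1) in the list of both. It was the highest-ranking Hox locus of replicate 2 and the strongest in the list of both that was found in each replicate. Its summit window is rich in G and C, at 62.4%, and holds none of the 5 motifs. In replicate 1 the strongest region was another, in intron 1 at 588 bp (rank 4692), with no overlapping region in replicate 2. The sequence at that summit held GAAACC. Of replicate 1 regions of ranks 4001 to 6000, 28.4% lacked such an overlap. Another region of replicate 1, 74 bp before the start, had rank 19200 and was not listed in replicate 2.

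nob-1 (WBGene00003779, 12077793 to 12084316, minus strand) had the most regions of the 5 genes in replicate 2 and in the list of both, with 6 in replicate 1, 7 in replicate 2 and 7 in the list of both. Genes with windows as long had a median of 3 in each list. Around that median, lin-39, mab-5 and egl-5 had 2 to 4, while php-3, which shares regions with nob-1, had 6 or 7. The nob-1 regions were spread over the gene and none was high. The strongest in the list of both lay in intron 2, 4761 bp into the gene and next to exon 3, at 12079313 to 12079796. It had rank 5673 (score 41.1) in replicate 1, rank 18845 (22.3) in replicate 2 and rank 7980 (60.4) in the list of both. In replicate 2 the strongest was instead at the gene's end, with rank 6808 (32.6). Its summit lay in an exon of a non-coding transcript of nob-1 and in an intron of the coding transcripts. In replicate 1 the same locus had rank 25592. The window there holds GAAACC in a pair, starting at bases 21 and 28 of the printed sequence.

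php-3 (WBGene00004024, 12074218 to 12077556, minus strand) starts 236 bp beyond the end of nob-1, so the 5 kb upstream of it run into nob-1. Of its regions, 3 of 7 in replicate 1, 5 of 6 in replicate 2 and 4 of 6 in the list of both were counted for nob-1 too. Which of the neighbours such a region belongs to cannot be told from its position. Inside php-3, intron 3 held a region at 12074930 to 12075413 with rank 3008 (score 48.96) in replicate 1 and rank 7634 (61.3) in the list of both, and none in replicate 2. As at lin-39, the strongest replicate 1 region had no counterpart. Of replicate 1 regions of ranks 2001 to 4000, 20.7% had none. A region in intron 1 was ranked alike in the replicates, at 13934 in replicate 1 and 13633 in replicate 2, with summits 8 bp apart.

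**Figure D2:**
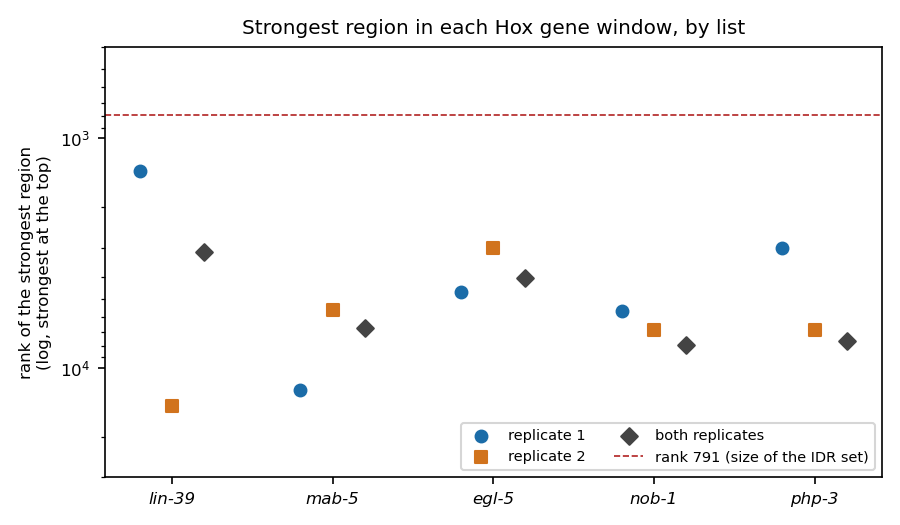
Rank of the strongest region in the window of each Hox gene, on a log scale with the strongest at the top, for replicate 1 (circles), replicate 2 (squares) and the list of both replicates (diamonds). The dashed line is rank 791; the nearest point to it is lin-39 in replicate 1, at rank 1384.

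The order of the genes by their strongest region changed between replicates. In the list of both it was lin-39 (rank 3116), egl-5 (4072), mab-5 (6672), php-3 (7634) and nob-1 (7980). In replicate 1 it was lin-39, php-3, egl-5, nob-1 and mab-5, while in replicate 2 egl-5 came before mab-5, nob-1 and php-3 tied on 1 shared region, and lin-39 came last with rank 14620. lin-39 thus moved between the replicates by more than the whole span of the 5 genes in the list of both, and the order is not one the replicates share. Against genes with windows as long, 13.3% had a stronger region than lin-39 in replicate 1 and 67.4% in replicate 2. For egl-5 these shares were 34.7% and 24.2%, for mab-5 63.0% and 38.6%, for nob-1 39.8% and 44.2%, and for php-3 25.4% and 44.2%. The strongest Hox region scored 79.961 in the list of both, and the weakest IDR peak scored 127.161.

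Regions of the replicate lists and of the list of both were joined into 17 loci wherever they overlapped. Of these loci, 10 were in both replicate lists. Among replicate 1 regions, 11 of 18 in the Hox windows (61.1%) overlapped a replicate 2 region, against 58.2% of all replicate 1 regions. Among replicate 2 regions, 14 of 17 (82.4%) overlapped a replicate 1 region, against 58.1% of all. With summits within 100 bp of each other required, 6 of 18 (33.3%) and 6 of 17 (35.3%) were shared, against 30.2% of all regions in either list. Sharing at the Hox genes was thus near that of the lists as a whole, apart from the overlap of replicate 2 regions. For the 791 highest regions of replicate 1, overlap was 99.2%. The 3 loci with the highest replicate 1 ranks, at lin-39, php-3 and egl-5, were all unlisted in replicate 2.

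**Figure D3:**
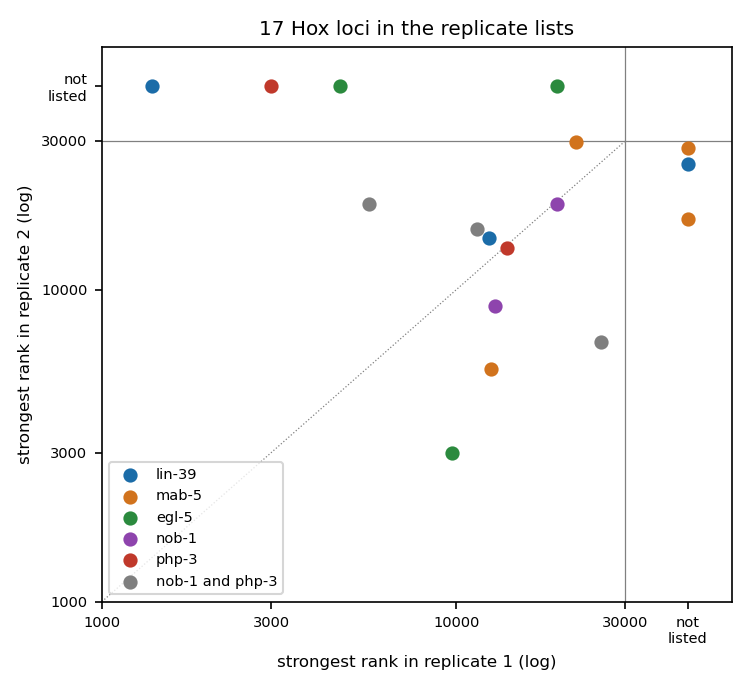
The 17 Hox loci by their strongest rank in replicate 1 (x axis) and in replicate 2 (y axis), both on log scales, coloured by gene. Points beyond the grey lines were not listed in that replicate. The 4 at the top were in replicate 1 alone and the 3 at the right in replicate 2 alone.

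Taken over the windows, the Hox genes had a few more regions for their length than genes in general, none of them among the highest 791. The windows join to 47.5 kb. They held 3.79 regions per 10 kb in replicate 1, 3.58 in replicate 2 and 3.37 in the list of both, against 3.05, 3.045 and 3.04 over all protein-coding gene windows. The median Hox rank was 13386.5 of 30000 in replicate 1 (all gene windows, 14991.5), 16912 in replicate 2 (14992.5) and 11402.5 in the list of both (14958). Of the 16 distinct regions in the list of both, 7 were in introns, 3 in coding exons, 1 in a 3′ UTR, 1 in an exon of the non-coding transcript and 4 upstream of a start and in no Hox gene. A summit lay within 1 kb of a Hox gene start for 8 of the 16. None lay within 100 bp of a transfer RNA or small nucleolar RNA gene. The same counts of location were not taken over all regions, so none is read as a trait of the Hox genes.

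As more regions of each list were taken, lin-39 was reached in replicate 1 within the highest 1582, and the other genes of that list and all 5 genes of the other lists only beyond 3000. The highest 3000 regions reached 1 of 5 Hox genes in replicate 1, 0 in replicate 2 and 0 in the list of both. For genes with windows as long the shares were 25.4%, 24.2% and 25.3%. This cut fell just short of php-3 in replicate 1 (rank 3008) and egl-5 in replicate 2 (rank 3003). Among the highest 4000, 2, 1 and 1 of 5 were reached, against 31.17%, 30.01% and 30.85%. Among the highest 7000, 4, 4 and 3 of 5 were reached, against 45.7%, 45.1% and 44.7%. Among the highest 10000, 4 of 5 were reached in replicate 1, where mab-5 was not, 4 of 5 in replicate 2, where lin-39 was not, and 5 of 5 in the list of both, against 55.9%, 56.1% and 55.5%. Over all protein-coding genes the shares were 35.9%, 35.7% and 35.1% among the highest 7000. Among the highest 10000 they were 44.9%, 45.5% and 44.1%. nob-1 and php-3 share regions, so the 5 are not independent, and no departure from the background is read from these counts.

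**Figure D4:**
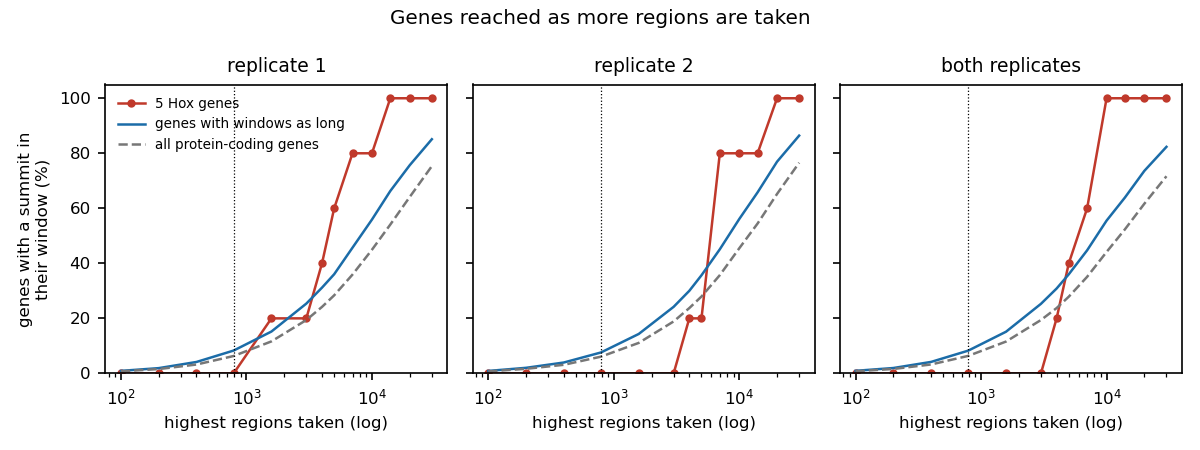
Share of genes with a summit in their window (y axis, percent) against the number of highest regions taken (x axis, log scale), for each list. Red is the 5 Hox genes, blue genes with windows as long, grey all protein-coding genes, and the dotted line is 791 regions, where 0 of 5 Hox genes were reached in each list.

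Letters known for CHE-1 and for Hox factors were each found within 50 bp of 1 or 2 of the Hox summits in the list of both. Within 50 bp of the 16 summits of the list of both, GAAACC was found on either strand in 2 (12.5%, against 4.85% of all 30000 regions) and GAAGCC in 1 (6.25% against 3.89%). TGATNNAT was found in 2 (12.5% against 5.18%) and TAATTA in 1 (6.25% against 3.49%). CGCACA, found in 13.3% of the 791 highest regions, was in 1 Hox window (6.25% against 3.6% of all). In replicate 1, GAAACC was in 2 of 18 windows (11.1% against 4.66% of all regions) and GAAGCC in 1 (5.56% against 3.7%). TGATNNAT was in 2 (11.1% against 5.67%), TAATTA in 0 (against 3.48%) and CGCACA in 1 (5.56% against 3.36%). In replicate 2, GAAACC was in 3 of 17 windows (17.6% against 4.75%) and GAAGCC in 1 (5.88% against 3.94%). TGATNNAT was in 1 (5.88% against 5.77%), TAATTA in 3 (17.6% against 3.8%) and CGCACA in 0 (against 3.47%). Within 100 bp of the summits of the list of both, GAAGCC was in 6.25% of Hox windows, against 7.49% of all regions. TAATTA (6.25% against 7.39%) and CGCACA (6.25% against 6.87%) were also in a lower share of Hox windows. GAAACC (12.5% against 9.19%) and TGATNNAT (18.75% against 11.34%) remained in a higher share. The counts turn on 1 to 3 windows, so no order is read from them, and a match describes letters, not binding. Within 50 bp of the summit the Hox windows of the list of both held a median of 38.6% G and C, against 40.6% over all regions and 50.5% over the 791 highest. Within 100 bp the Hox median was instead above that of all regions, at 41.0% against 39.8%, and in replicate 1 both medians were 39.6% within 50 bp.

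The nearest IDR peaks lay 40.3 to 148.1 kb from the Hox gene starts. For mab-5 and egl-5 it was the same peak, at 7854431 to 7854914 with rpl-35, a ribosomal protein gene, as the nearest gene, 71.2 kb from the mab-5 start and 40.3 kb from the egl-5 start. For lin-39 the nearest lay 105.7 kb away, at 7642053 to 7642536. For nob-1 the nearest lay 148.1 kb away, at 11936001 to 11936484, and the same peak lay 141.3 kb from php-3. The median distance was 36.6 kb over the 2640 protein-coding genes of chromosome III, of which 3.83% were farther from a peak than nob-1, 11.5% farther than lin-39, 25.6% farther than mab-5 and 46.3% farther than egl-5. Over the 19973 nuclear genes the median was 53.7 kb, and 16.8% were farther than nob-1, 26.4% farther than lin-39, 40% farther than mab-5 and 58.7% farther than egl-5. egl-5 was thus nearer to a peak than the median nuclear gene but farther than the median gene of chromosome III. nob-1 and php-3 were among the more distant.

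Except at php-3, which starts 236 bp from nob-1, the DNA between the Hox genes and their upstream neighbours is long. Reaching past 5 kb added no IDR peak. Between the start of lin-39 and that of ceh-13, 19 kb away, the strongest region in the list of both (rank 4338) lay 18.1 kb from lin-39, just before ceh-13. ceh-13 is the remaining anterior Hox gene, and that region, at -956 bp from its start (negative upstream), was the strongest in its window, where the strongest of replicate 1 had rank 5246. In replicate 2 the strongest region of ceh-13 was at -2410 bp (rank 3699). Upstream of nob-1 a region 9.7 kb from the start (12093741 to 12094224) had rank 3696 in the list of both and scored 76.3, above any region in the nob-1 window. In replicate 1 the strongest region of that stretch lay at the same place, with rank 4741. In replicate 2 the strongest lay 13.3 kb from the start and had rank 11413, below the strongest of the nob-1 window (6808). In the 19 kb upstream of egl-5 no region ranked above the one described, in replicate 2 or in the list of both. In replicate 1 a region 15.1 kb from the egl-5 start had rank 5235, above that upstream locus (9709). Upstream of mab-5 the strongest in the list of both had rank 12266.

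Genes that work with the Hox genes were looked at in the same way. Of 19 Hox partners and chromatin regulators, 4 had an IDR peak (21.1%, against 6.36% of all protein-coding genes). These were unc-62, lin-35, sor-3 and mes-2. unc-62 codes for the Meis-type partner of Hox proteins, and its peak on chromosome V at 4495027 to 4495510 lay upstream, at -2192 bp from the start, with ranks 417 in replicate 1, 382 in replicate 2 and 381 in the list of both. lin-35, the retinoblastoma homologue, had a peak at -211 bp with ranks 215, 502 and 270 in the same lists. The peak at -247 bp of sor-3, which takes part in Hox repression, lay at a transfer RNA gene and had ranks 76, 118 and 90. mes-2, the methyltransferase of the Polycomb complex, had ranks 563 in replicate 1, 3559 in replicate 2 and 791 in the list of both, the last place of the IDR set. Of 28 regulators and targets of Hox genes, 1 had an IDR peak (3.57%, against 6.36% of all protein-coding genes), egl-18, a GATA factor gene. Its peak, at -1222 bp, had rank 675 in the list of both and 704 in replicate 1 and lay at the non-coding RNA gene F55A8.6, while the strongest egl-18 region of replicate 2, with rank 572, lay elsewhere, at 3162 bp. By the highest 791 regions of each replicate, 5 of the 19 partners and chromatin regulators were reached in replicate 1 (26.3%, against 6.32% of all genes) and 3 in replicate 2 (15.8% against 6.08%). Of the 28 regulators and targets, 1 was reached in replicate 1 (3.57% against 6.32%) and 4 in replicate 2 (14.3% against 6.08%). The 4 were egl-18, and pop-1, lin-17 and egl-27, which are named after their values were seen. Both lists of genes were chosen with earlier results of these data known, so their shares are not independent of the data. The shares are set against all genes only, not against genes with windows of like length. These lists hold few genes, and no test was made of them.

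Other genes had pairs of ranks close to those of each Hox gene. Among 7458 named genes with a region in each replicate, the nearest by distance of log10 rank was fipr-29 for lin-39 (ranks 1445 in replicate 1 and 13875 in replicate 2), gcy-17 for mab-5 (12490 and 5418), pcdr-1 for egl-5 (4845 and 2937), srw-7 for nob-1 (5817 and 6686) and dpy-18 for php-3 (2961 and 6805). Within a distance of 0.1 there were 34 genes for lin-39, and 116 to 158 for each of the others. The likeness is over 2 libraries of 1 condition only.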

How the data were processed

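Per the text notes deposited with the lists, the authors deposited region lists called against a control in build ce11, 1 for each replicate and 1 on both together, each with background regions, and the IDR set of 791. Their deposited score (column 7) and q score have no stated scale and were used only to rank regions within a list. The aligner, caller and IDR threshold: not given in the sources used here. The files hold no read counts, so depth is unknown. The ce10 lists were not used here.

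Regions were joined to the Ensembl release 115 annotation of WBcel235, and sequences were read from the RefSeq assembly of that build, within whose chromosomes all regions fitted. Coordinates are 1-based. Replicate regions were shared at an overlap of at least 1 bp. Named regions are the strongest of each window and list and, described further, the other listed loci, which were chosen after their values were seen. Named genes are the members, ceh-13, genes of both lists with an IDR peak, and the nearest gene by ranks. The members and lists were chosen with earlier results of these data known, and the comparison with genes whose windows are as long was added after the data were seen. No test was made, as there is 1 group. The window and overlap code was tested on simulated data. Python 3.11.15, numpy 2.4.6 and pandas 2.3.3 were used.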

Additional observations from a re-analysis of the deposited data

How the results depend on the processing

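No Hox gene had an IDR peak with windows from 2 kb or 10 kb upstream, or with each summit given only to the nearest gene start. The same held with the first annotated transcript, in the highest 395 peaks, and among 1582 regions of the list of both. The 2 kb windows and the highest 395 peaks lie within the main setting, so with 0 there they could only give 0. The highest 791 regions of either replicate alone (added after the data were seen) also gave 0. With 2 times as many regions of replicate 1 the count was 1, lin-39. The share of replicate 1 regions found in replicate 2 was 33.3% with summits within 100 bp, where fewer pairs can qualify, against 61.1% by overlap. The number of regions in the windows was 17 without replicate 1 and 18 without replicate 2, against 16. Ranks by the q column, windows from 2 kb upstream and the first annotated transcript (the last added after the data were seen) changed the rank of each gene's strongest region little. For example, by the q column lin-39 in replicate 1 had rank 1405 in place of 1384, and nob-1 in replicate 2 had rank 6781 in place of 6808. The depth is unknown, so a region missing from a list is not shown to be absent.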
